A study of Mus musculus with 3 samples.

Results

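The genes described are 39 regulators and structural genes of striated muscle, that is of skeletal and heart muscle, among the 21782 genes counted in RNA-seq libraries of mouse embryo fibroblasts (MEFs). The 39 members were chosen by name for their role in muscle, with their counts in these same libraries already known, so their levels and the differences between clones are given as a description and carry no test. They fall into 8 roles: 4 myogenic factors, 3 MEF2 factors, 4 embryonic sarcomere genes, 11 later skeletal sarcomere genes, 6 slow and ventricular sarcomere genes, 4 cardiac sarcomere genes, 3 scaffold genes of the sarcomere, and 4 genes of the muscle membrane. All 39 have a row in the table.

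The cells were wild-type (WT) MEFs obtained from embryos at embryonic day 12.5, grown without synchronization, and their polyadenylated RNA was sequenced in 3 clones with 1 library each. The study compared cohesin variants, and these libraries served as its WT expression data, so there is a single genotype, no treatment and no contrast between groups. The strain and the parts of the embryo that were cultured are not given in the sources used here. With 1 library per clone, a difference of the cells, of their culture and of the library cannot be told apart, and the spread over the 3 clones is the only replicate error.

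Skeletal muscle forms when precursor cells switch on basic helix-loop-helix factors of the Myod1 family, which pair with E proteins, bind E-box sequences and, together with the MEF2 factors, activate the genes of the contractile apparatus. This apparatus, the sarcomere, is built from actin, myosin, troponin and giant scaffold proteins, most of which come as embryonic, fast, slow and cardiac isoforms from separate genes. Fibroblasts are not muscle cells, but cultures from embryos can hold other cell types, and fibroblasts carry related smooth muscle and non-muscle actins and myosins.

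Depth was similar, with 25261357, 22594316 and 24791198 counts in clones 1, 2 and 3, the largest 1.12 times the smallest, and 1 count corresponded to 0.0402, 0.0443 and 0.0396 CPM, the counts per 1000000 counts of a library after scaling for composition. Of the 12 fibroblast genes, 12 reached 1 CPM in every clone, against 52.2% of all genes in the table. Their summed levels were 58926, 48885 and 47542 CPM, led by Col1a1 and Col1a2. The 11 macrophage and 6 proliferation markers in the table all reached 1 CPM in every clone too. This limit therefore does not tell cell types apart. Markers of other states differed between the clones. All 11 macrophage markers in the table were at least 2-fold higher in clone 2 than in either other clone, with summed levels of 268, 1328 and 238 CPM in clones 1, 2 and 3. All 6 proliferation markers were lowest in clone 1 and highest in clone 2, with summed levels of 368, 723 and 609 CPM. Summed levels were lowest in clone 2 for the cartilage (799, 549 and 777 CPM) and neural lists (955, 649 and 895 CPM). The endothelial sum was lowest there too (20.4, 11.8 and 23.0 CPM). Of the genes with at least 10 counts in any clone, 2 of 5, 2 of 3 and 1 of 4 were lowest in clone 2 in these lists. The part of all these markers in the differences given below was not tested.

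The members ranged from genes with no reads to genes with over 1000 counts in every clone. Of the members, 9 reached 1 CPM in every clone (Mef2a, Mef2c, Mef2d, Acta1, Actn3, Tnnc1, Tnni1, Tnnt2 and Neb), against 52.2% of all genes in the table. At the other end, 14 members had at most 3 counts in each of the 3 libraries, against 34.9% of all genes, and 5 of these had 0 counts in all 3. The remaining 16 members lay between these limits. The median of the members' mean levels was 0.278 CPM and that of all genes 2.22 CPM. A count of 0 allows a level of up to 0.121, 0.133 and 0.119 CPM in clones 1, 2 and 3 (3 counts), and this floor, like the intervals below, covers counting error only. The low count of members at 1 CPM is no finding, because the counts were known when the members were chosen.

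**Figure D1:**
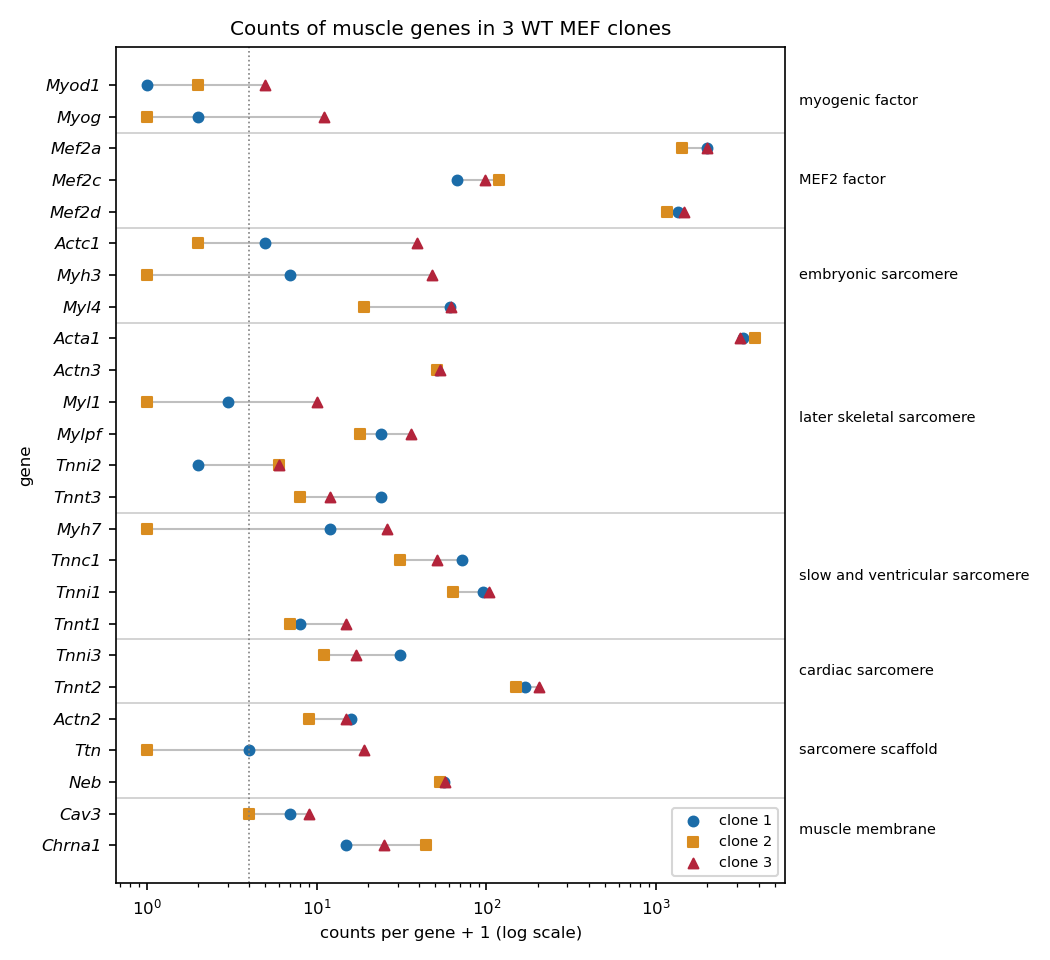
Counts plus 1 (log axis) of the 25 members with more than 3 counts in any of the 3 WT MEF clones, grouped by role. Each point is 1 library, and the dotted line marks the floor of 3 counts. Acta1, Mef2a and Mef2d sit above 1000 counts in every clone, most others below 100, and Myog, Actc1, Myh3, Myh7 and Ttn have their highest point in clone 3.

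The myogenic factors were at or near 0. Myod1, the factor that can turn fibroblasts into muscle cells when forced, had 0, 1 and 4 counts in clones 1, 2 and 3. Myf5 and Myf6, 2 neighbouring genes on chromosome 10 that act early and late in the muscle lineage, had 0 counts in every clone. Myog (myogenin), which drives the differentiation of committed myoblasts, had 1, 0 and 10 counts, so nearly all its reads came from clone 3. The 4 factors together had 1, 1 and 14 counts. The rate in clone 3 was 13.1 times that of clones 1 and 2 pooled (95% exact conditional binomial interval 3.02 to 119), and for Myog alone it was 18.8 times (2.67 to 814). The counting interval for Myod1 included 1 (7.51-fold, 0.743 to 370). Even the 14 counts of clone 3 amount to 0.554 CPM, so in no clone did this family reach the level of 1 CPM.

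The MEF2 factors, partners of the Myod1 family that are also active in many other tissues, were expressed in all clones. Mef2a had 1992, 1411 and 1978 counts (73.7 ± 9.67 CPM, SD, n = 3) and Mef2d had 1333, 1158 and 1452 counts (54.2 ± 3.10 CPM). Mef2c, the member of the family most tied to heart and skeletal muscle, had 66, 118 and 97 counts (3.91 ± 1.29 CPM). It was highest in clone 2, at 1.61 times the pooled rate of the other clones (1.26 to 2.05), the clone in which the macrophage markers were also highest. Per kb of exon, Mef2d led with 9.05 CPM, followed by Mef2a with 5.02 CPM and Mef2c with 0.249 CPM. On this scale Mef2d took 63.3% ± 1.85 of the family's level, Mef2a 35.0% ± 2.54 and Mef2c 1.77% ± 0.698 (SD, n = 3). The order of Mef2a and Mef2d depends on the scale, because Mef2a has the longer exons and held 55.8% ± 3.13 of the raw counts. Some of the counts of Mef2d cannot be assigned with certainty, since 8.87% of its exonic bases are overlapped by genes of the opposite strand and the strand setting is not given.

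The embryonic sarcomere genes separated clone 3 from the others. Actc1, the cardiac α-actin that is also the main sarcomeric actin of embryonic skeletal muscle, had 4, 1 and 38 counts, or 0.161, 0.0443 and 1.505 CPM. Myh3, the embryonic myosin heavy chain that is among the first made in new muscle fibres, had 6, 0 and 47 counts, or 0.241, 0 and 1.86 CPM. For both genes the value of clone 3 lay far above the other clones, which were within a few counts of 0. The rate of Actc1 in clone 3 was 14.3 times that of the other clones pooled (5.60 to 46.4), and the rate of Myh3 14.7 times (6.27 to 42.1).

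The other embryonic genes did not follow. Myl4, the embryonic and atrial essential light chain, had 60, 18 and 61 counts, so clone 2 was below both other clones, at 0.331 times their pooled rate (0.190 to 0.545). Myh8, the perinatal myosin heavy chain, had 0, 0 and 1 count. As a group the 4 embryonic genes had 70, 19 and 147 counts, with clone 3 at 3.10 times the pooled rate of the others (2.37 to 4.08). This fold was 14.7 without Myl4 and 2.26 without Myh3, and it was 6.91 without clone 1 and 2.07 without clone 2, so its size depended on the genes and on the clones that entered it.

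Myh3 and Myh8 belong to a cluster of striated myosin heavy chain genes on chromosome 11, in which Myh3, Myh2, Myh1, Myh4 and Myh8 follow each other in this order, starting with Myh3 at chr11:67078300-67102291 on the plus strand (GRCm38). Within the cluster, Myh3 was the gene with reads above the floor, while Myh2 had 1, 0 and 2 counts, Myh1 had 2, 1 and 2, and Myh4 had 0 in every clone. These neighbours are alike in sequence: 8.06% of the 86-nt stretches of Myh3 transcripts matched another gene within 2 mismatches, against 43.5% for Myh1, 37.6% for Myh2 and 27.3% for Myh4. Their low counts are therefore uncertain, whereas those of Myh3 are affected less.

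**Figure D2:**
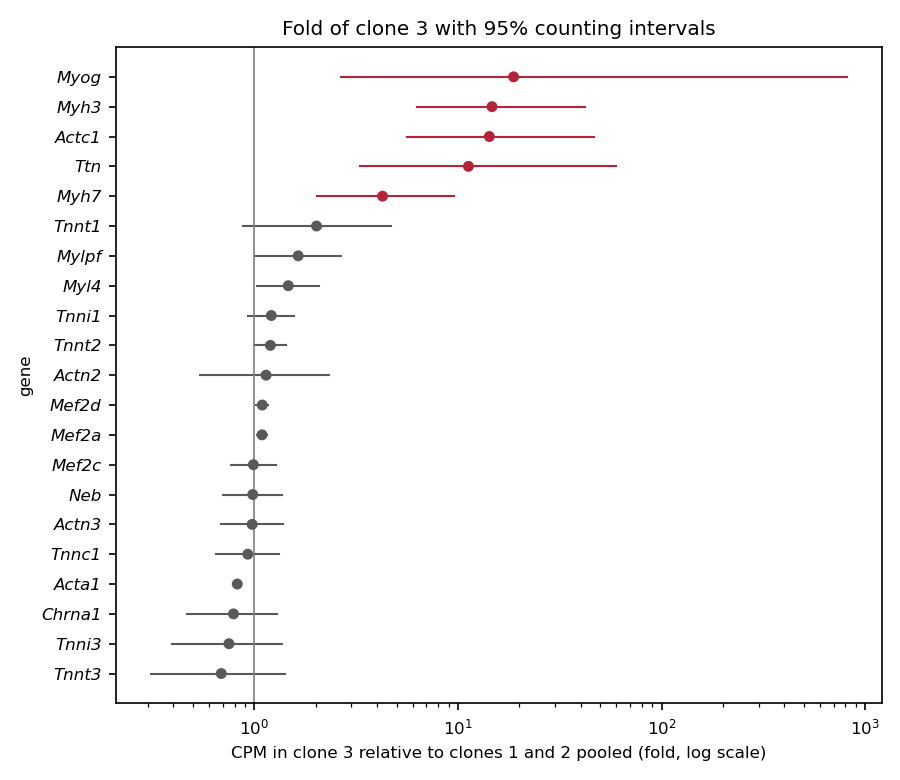
Fold in clone 3 over the pooled rate of clones 1 and 2 (log axis) for the 21 members with at least 10 counts in any clone, with its 95% exact conditional binomial interval for counting error. Red marks the 5 members called raised; Myog, Myh3, Actc1 and Ttn lie between 11.3-fold and 18.8-fold, while Acta1, Mef2a and Mef2d lie close to 1.

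Sequences before the start of these genes are shown because Myog, Actc1, Myh3 and Ttn had the largest folds in clone 3 among members with at least 10 counts, and Acta1 is the sarcomeric gene read in large numbers in every clone. Each is the RefSeq window of 300 bases on GRCm38.p6, from 250 bases before to 50 bases after the annotated start, 5′ to 3′ on the strand of the gene. They lie at chr1:134289754-134290053 (plus strand) for Myog, chr2:114052826-114053125 (minus) for Actc1, chr11:67078050-67078349 (plus) for Myh3, chr2:76982498-76982797 (minus) for Ttn and chr8:123894726-123895025 (minus) for Acta1. Capitals mark E-boxes (CANNTG), the MEF2 box (YTAWWWWTAR), the CArG box bound by serum response factor (CCWWWWWWGG), and TATAAA, each searched on both strands. Here Y is C or T, W is A or T and R is A or G. Near matches are not marked, such as ctatatttat in the Myog window, which misses the MEF2 form only at its last base. The lack of a mark therefore does not show that a site is absent.
Myog: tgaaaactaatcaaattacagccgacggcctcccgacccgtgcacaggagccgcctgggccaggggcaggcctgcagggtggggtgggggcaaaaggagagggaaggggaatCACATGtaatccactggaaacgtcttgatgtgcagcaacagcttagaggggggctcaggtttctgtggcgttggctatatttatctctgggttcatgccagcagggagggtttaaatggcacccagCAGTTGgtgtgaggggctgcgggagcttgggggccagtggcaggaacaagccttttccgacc
Actc1: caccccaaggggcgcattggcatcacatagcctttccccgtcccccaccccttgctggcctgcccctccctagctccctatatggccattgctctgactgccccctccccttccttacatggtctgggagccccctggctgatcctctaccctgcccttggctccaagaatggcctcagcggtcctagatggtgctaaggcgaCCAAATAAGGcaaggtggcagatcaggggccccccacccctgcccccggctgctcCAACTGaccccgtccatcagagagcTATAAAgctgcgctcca
Myh3: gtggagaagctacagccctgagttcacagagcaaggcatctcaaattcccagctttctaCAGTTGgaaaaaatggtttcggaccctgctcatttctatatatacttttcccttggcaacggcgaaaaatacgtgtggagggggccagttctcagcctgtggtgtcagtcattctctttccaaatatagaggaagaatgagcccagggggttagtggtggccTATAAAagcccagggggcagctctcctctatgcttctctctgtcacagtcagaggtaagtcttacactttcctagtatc
Ttn: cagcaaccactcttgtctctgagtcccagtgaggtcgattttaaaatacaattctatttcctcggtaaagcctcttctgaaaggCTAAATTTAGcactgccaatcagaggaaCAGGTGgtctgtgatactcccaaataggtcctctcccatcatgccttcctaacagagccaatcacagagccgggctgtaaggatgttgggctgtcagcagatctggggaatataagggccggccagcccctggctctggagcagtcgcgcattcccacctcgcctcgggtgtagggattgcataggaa
Acta1: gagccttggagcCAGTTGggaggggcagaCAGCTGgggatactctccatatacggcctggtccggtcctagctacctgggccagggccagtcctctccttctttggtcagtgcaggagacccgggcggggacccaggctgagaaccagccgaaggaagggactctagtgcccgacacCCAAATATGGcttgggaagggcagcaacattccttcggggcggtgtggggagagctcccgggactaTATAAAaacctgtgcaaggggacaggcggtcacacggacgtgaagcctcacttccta

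In these windows, Myog holds E-boxes 138 and 12 bases before the start, and Myh3 holds an E-box 191 bases and TATAAA 29 bases before it. Actc1 holds a CArG box 47 bases before the start, with an E-box 8 bases and TATAAA 33 bases after it. In the GENCODE annotation Actc1 reaches to chr2:114053548, beyond the 5′ end of its window. Its distances therefore depend on the start used. The window of Ttn holds a MEF2 box 166 bases and an E-box 138 bases before the start. Acta1 holds E-boxes 238 and 221 bases before the start, the second of the form CAGCTG, with a CArG box at 73 and TATAAA at 7 bases before it. The motifs are common, and some overlap, since CAGCTG is a form of CANNTG and TATAAA can lie within a MEF2 box. Of the 39 members, 32 had a window in the RefSeq table. A gene can have more than 1 window, as 5 members do, so shares are given over the 32851 windows of this length and over their 27025 genes, a gene counting when any window holds the motif, as members were counted. At least 1 E-box stood in 26 of the 32 members (72.3% of windows, 75% of genes), and the form CAGCTG in 11 (16.3% and 18.3%). A MEF2 box of exactly the form given above stood in 5, Mef2a, Myh8, Myh1, Myh4 and Ttn (3.19% and 3.7%). A CArG box stood in 5, Actc1, Acta1, Myh4, Myl3 and Myl7 (1.63% and 1.81%), and TATAAA in 13 (13.6% and 15.7%). These motifs were in the windows of members that were read in this culture and of members that were not: Myh4, which had 0 counts, holds both a MEF2 box and a CArG box. A match describes the letters and does not show that a factor binds there.

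Among the later skeletal sarcomere genes, Acta1 was the exception to low levels. Acta1 (chr8:123891769-123894751), the α-actin of adult skeletal muscle, had 3235, 3805 and 3093 counts (140 ± 24.8 CPM, SD, n = 3). It was the highest of all members, and clone 2 was above the other clones, at 1.34 times their pooled rate (1.28 to 1.39), while clone 3 was the lowest. Actc1 thus differed between clones in another way than Acta1, which made up 99.9%, 99.97% and 98.8% of the counts of both genes in clones 1, 2 and 3. Per kb of exon, Acta1 stood at 91.5 ± 16.1 CPM. On the same scale Acta2, the smooth muscle α-actin of activated fibroblasts, stood at 3122 ± 101 CPM, the cytoplasmic actins Actb and Actg1 at 1671 ± 178 and 1323 ± 230 CPM, and the smooth muscle γ-actin Actg2 at 442 ± 58.4 CPM. Actc1 stood at 0.352 ± 0.502 CPM per kb. Of the 86-nt stretches of Acta1 transcripts, 0.367% matched another gene within 2 mismatches, none of them in Acta2.

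**Figure D3:**
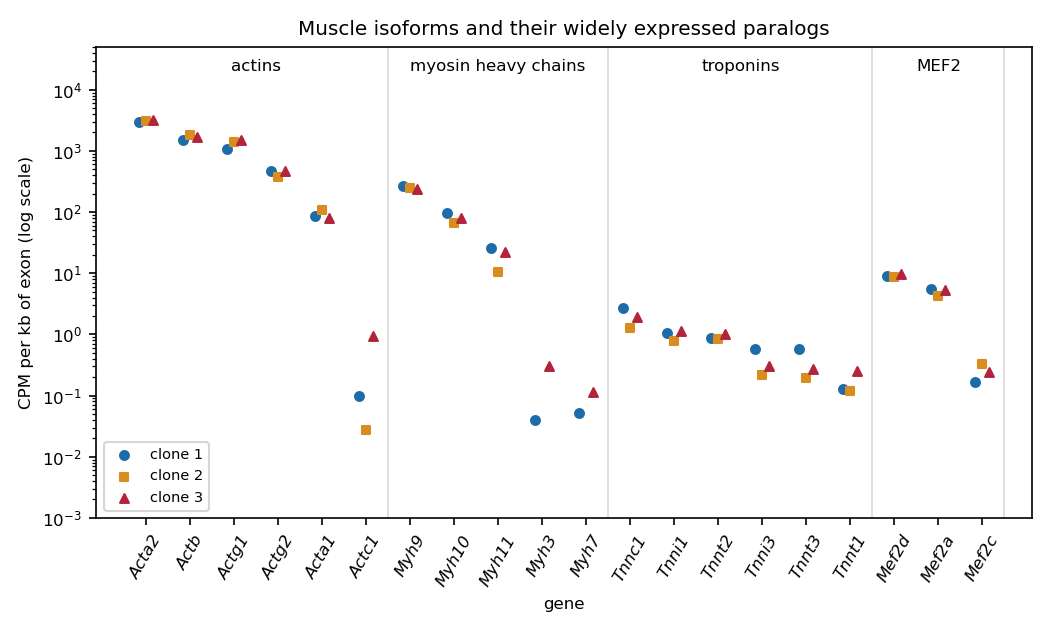
Level in CPM per kb of exon (log axis) of actins, myosin heavy chains, troponins and MEF2 factors, with 1 point per clone; values of 0 are not drawn. Acta1 sits between the other actins and Actc1, and the striated myosin heavy chains Myh3 and Myh7 sit well below Myh9, Myh10 and Myh11.

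The fast-fibre myosins and troponins showed little or nothing. Actn3, the α-actinin of fast fibres, had 50, 50 and 52 counts (2.10 ± 0.107 CPM), nearly the same level in all clones. Mylpf, the fast regulatory light chain, had 23, 17 and 35 counts, highest in clone 3 at 1.64 times the pooled others (1.01 to 2.65). Myl1, the fast essential light chain, had 2, 0 and 9 counts, 8.44 times the others in clone 3 (1.75 to 80.3). Both light chains were thus higher in clone 3 with an interval above 1, but 34.1% of the stretches of Myl1 match a pseudogene. Troponin T of fast fibres, Tnnt3, had 23, 7 and 11 counts and was highest in clone 1, at 2.46 times the others (1.27 to 4.83). Tnni2, the fast troponin I, had 1, 5 and 5 counts, and Tnnc2, the fast troponin C, had 1, 0 and 3. The reads of Tnnc2 are uncertain, since 74.0% of its exonic bases are overlapped by Ube2c on the opposite strand. Ckm, the muscle creatine kinase that marks differentiated fibres, had 0 counts in every clone.

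The slow and ventricular genes were read at low levels, with Myh7 again highest in clone 3. Myh7, the β-myosin heavy chain of slow fibres and of the ventricle, had 11, 0 and 25 counts, so that clone 3 stood at 4.26 times the pooled others (2.02 to 9.60) and clone 2 at 0. Of its 86-nt stretches, 35.3% match another gene, mainly its neighbour Myh6, the α-heavy chain of the heart, which had 0 counts in every clone. A further limit on Myh7 is that 13.3% of its exonic bases are overlapped by genes of the opposite strand. Tnni1, the slow troponin I, had 95, 63 and 102 counts (3.55 ± 0.665 CPM). Tnnc1, the troponin C shared by slow and cardiac muscle, had 71, 30 and 50 counts (2.06 ± 0.766 CPM). Both were lowest in clone 2. Slow troponin T, Tnnt1, had 7, 6 and 14 counts, for which the counting interval of the fold in clone 3 included 1 (2.02, 0.881 to 4.67). The ventricular light chains Myl2 and Myl3 had at most 3 counts in any clone, with 2, 1 and 1 for Myl2 and 0, 0 and 3 for Myl3.

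Of the cardiac genes, Tnnt2 was the one that reached 1 CPM in every clone. Tnnt2, the cardiac troponin T that embryonic skeletal muscle also makes, had 168, 148 and 202 counts (7.11 ± 0.777 CPM) and held 88.6% ± 3.56 of the counts of the 3 troponin T genes. In the same way Tnni1 held 79.7% ± 3.88 of the counts of the 3 troponin I genes (both as raw counts, not per length). The cardiac troponin I gene Tnni3, which lies beside Tnnt1 on chromosome 7, had 30, 10 and 16 counts and was highest in clone 1, at 2.22 times the others (1.27 to 3.91). Thus Tnni3 and Tnnt3 were highest in a clone other than the one in which Myh3 and Actc1 were highest. The atrial light chain Myl7 had 3, 1 and 1 counts.

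Levels can be ordered between genes only per length. In CPM per kb of exon, Acta1 (91.5) was followed by Mef2d (9.05), Mef2a (5.02) and Tnnc1 (1.97), and then by Tnni1 (0.987), Mylpf (0.962) and Tnnt2 (0.917), which lay within 1 SD of each other. The places below Mef2a depend on the length used. Per kb of the longest coding transcript, Tnnt2 stood at 5.92 CPM, Tnni1 at 3.09 CPM and Tnnc1 at 2.85 CPM. On that scale Myl4 (1.99 CPM) also stood above Mylpf (1.33 CPM).

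Of the scaffold genes, Ttn was read mainly in clone 3. Ttn (titin), the giant protein that spans from the Z-disc to the middle of the sarcomere, had 3, 0 and 18 counts, 11.3 times the others in clone 3 (3.29 to 59.7). Neb (nebulin), which lies along the thin filament, had 55, 52 and 56 counts (2.25 ± 0.0524 CPM), with no clone apart from the others. Actn2, the α-actinin of cardiac and slow muscle Z-discs, had 15, 8 and 14 counts. Both genes are very long, and per kb of exon Ttn stood at 0.00238 CPM and Neb at 0.0845 CPM.

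In the membrane group, Chrna1, the α-subunit of the muscle acetylcholine receptor, had 14, 43 and 24 counts. It was highest in clone 2, at 2.51 times the others pooled (1.59 to 3.997) and 2.01 times the higher of them. The receptor subunits Chrnd and Chrng, neighbours on chromosome 1 of which the second is the fetal form, had 0, 0 and 3 and 0, 0 and 2 counts. Cav3, the caveolin of muscle membranes, had 6, 3 and 8 counts. Reads of Chrnd and Chrng thus came from clone 3, but lay at or under the floor of 3 counts.

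Calls of raised members in each clone were set beside the same calls over all genes. A gene was called raised in a clone when it had at least 10 counts in it and at least 2 times the CPM of each other clone, with values under 3 counts set to 3. Of the 21 members with at least 10 counts in any clone, 5 were raised in clone 3 (Myog, Actc1, Myh3, Myh7 and Ttn), where 0.292% of 13017 genes were (38 genes). Few counts make large folds more likely, and among genes with 10 to 100 counts in clone 3 the calls were 5 of 16 members and 1.42% of 2537 genes. In clone 1, 1 of 21 members was raised (Tnnt3), against 1.04% of genes, and in clone 2, 1 of 21 (Chrna1), against 3.4%, a call that was lost when CPM was taken over total counts. The members were chosen with these values in view, so nothing is read from the shares. Tnnt1, with 1.97 times the higher other clone, fell just short of the call in clone 3, and Myl1 fell short by 1 count.

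Lowered calls, for genes with at least 10 counts in both other clones and a CPM at least 2-fold below each, were made for 0 of 13 members in clone 1 (0.643% of genes), 2 of 16 in clone 2 (Myl4 and Myh7, 1.25%) and 0 of 13 in clone 3 (0.576%). Of the 21 members, the highest level was in clone 1 for 5, in clone 2 for 5 and in clone 3 for 11. The lowest level was in clone 2 for 16. The same shares over all genes were not computed. Myog, Actc1, Myh3, Ttn and Tnnt1 reached 10 counts only in clone 3, so that limit itself placed their highest level there. Nothing is therefore read from these counts. The 39 members summed to 293, 309 and 295 CPM, and Acta1, Mef2a and Mef2d made up most of each sum. The 30 members under 1 CPM in at least 1 clone, a set picked by these same counts, had 215, 122 and 357 counts together. These were 8.65, 5.41 and 14.1 CPM, with clone 3 at 1.99 times the pooled others (1.71 to 2.31). Of the counts in clone 3, Actc1 gave 38 and Myh3 gave 47. The 7 striated myosin heavy chain genes had 20, 1 and 77 counts (6.88-fold, 4.202 to 11.7), at most 0.0750% of the counts of these genes together with Myh9, Myh10 and Myh11. In bulk RNA, fewer cells of a type and less RNA per cell cannot be told apart, so these counts do not show whether a few cells or many carried the transcripts.

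**Figure D4:**
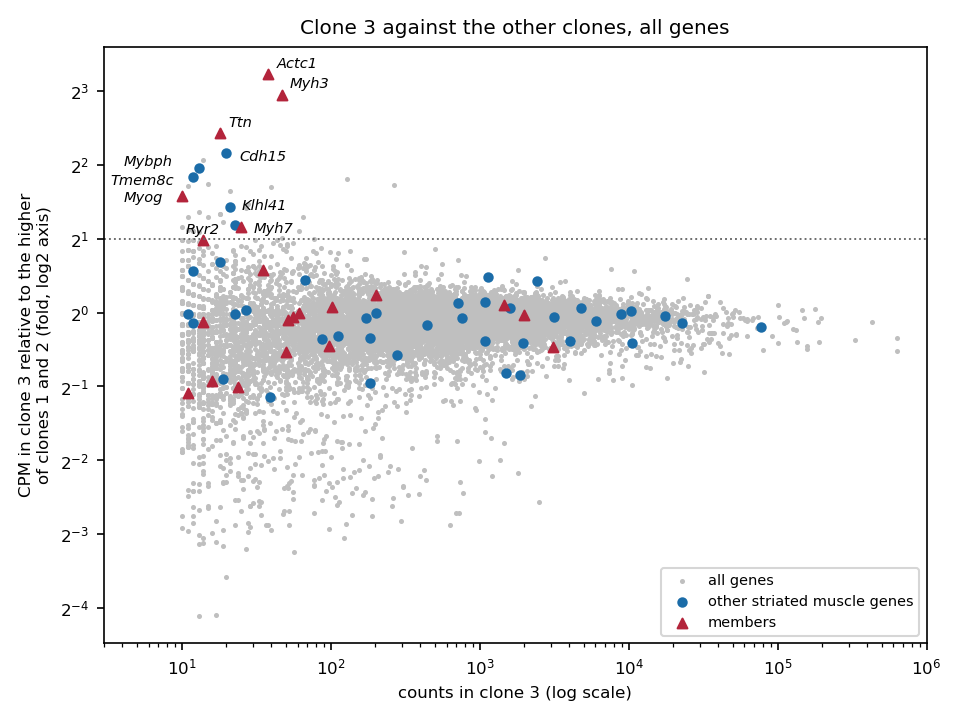
CPM in clone 3 relative to the higher of clones 1 and 2 (fold, log2 axis) against the counts in clone 3 (log axis), for genes with at least 10 counts in clone 3. Triangles are members, filled circles other striated muscle genes and small grey points all other genes; Actc1, Myh3 and Ttn lie at the top, above the dotted line of the 2-fold call.

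Ranked over the 12596 genes with at least 10 counts in clone 3 by the fold over the higher other clone, Actc1 was first (9.34), Myh3 second (7.71) and Ttn 3rd (5.36), with Myog at rank 16 (2.98) and Myh7 at rank 31 (2.24). Among genes with at least 30 counts, Actc1 and Myh3 were followed by Gja5, a gap junction protein of arteries and heart conduction tissue, with 36, 27 and 128 counts (3.50-fold). Of the 38 genes raised in clone 3, 5 were members and 5 were in a list of 83 other genes of striated muscle, of which 45 had at least 10 counts in any clone. The 28 remaining genes were in neither list.

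Other muscle genes raised in clone 3 were Cdh15, Tmem8c, Mybph, Klhl41 and Ryr2. Cdh15, the cadherin of muscle precursors, had 1, 4 and 20 counts, and Tmem8c (myomaker), which is needed for myoblasts to fuse, had 2, 0 and 12. Mybph, a myosin-binding protein, had 1, 1 and 13 counts, and Klhl41, a protein of the sarcomere, had 6, 7 and 21. For Mybph, 49.9% of the exonic bases are overlapped by Adora1 on the opposite strand, so its reads are uncertain. Ryr2, the calcium release channel of heart muscle, had 10, 8 and 23. This list, too, was set with earlier results known. Pax3 and Pax7, which mark muscle precursors, had 8, 7 and 1 and 0, 1 and 1 counts, so neither was high in clone 3. In the same list of precursor and fusion genes, the highest mean levels were those of Ncam1, Itga7 and Megf10. Ncam1, a cell adhesion molecule, had 13905, 12593 and 10586 counts and was lowest in clone 3, at 0.75 times the pooled others. Itga7, an integrin subunit that binds laminin, had 2593, 1413 and 1497 counts and was highest in clone 1. The 13 listed precursor and fusion genes together stood at 718, 684 and 548 CPM, so that their sum, which Ncam1 led, was lowest in clone 3 while Cdh15 and Tmem8c were raised there.

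Of the 45 other striated genes with enough counts, 0 were raised in clone 1 (1.04% of all genes) and 0 in clone 2 (3.4%). In clone 2, 7 of the 37 that could be called lowered were: Des, Myom1, Hspb7, Casq1, Casq2, Cox6a2 and Fabp3, against 1.25% of all genes. Des (desmin), the intermediate filament of muscle cells, had 1778, 701 and 2438 counts, and Myom1, which links thick filaments, had 3291, 820 and 1865. In clone 3, 1 was lowered, Nrap (11, 12 and 5 counts), against 0.576% of all genes. Among 11 E proteins, Id and Twist factors, myostatin and follistatin, 12 cardiac regulators and 19 genes of smooth and non-muscle contractile proteins, Id4, an inhibitor of E proteins, was raised in clone 2 (156, 373 and 175 counts) and Myh11, the smooth muscle myosin, was lowered there (4935, 1801 and 4292). Myh11 was the 1 gene lowered there among the 18 smooth and non-muscle contractile genes with enough counts. The sum of that list, led by Acta2, Actb and Actg1, was not lower in clone 2 (28848, 30264 and 30185 CPM). Of the 18 genes, 9 were lowest in clone 2, such as Smtn (0.73 times the pooled others) and Myh10 (0.76). Another 4 were highest there, among them Actb (1.16) and Actn4 (1.19). These shares over all genes were not computed. Acta1, a member outside that list, was also highest in clone 2. Macrophage markers were higher in the same clone, and the cartilage, neural and endothelial sums were lowest there. The part of these markers in the values was not tested.

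The leading genes of the other lists are named by their mean level in CPM (SD, n = 3), which does not compare genes of unequal length. The tropomyosins Tpm1 (3167 ± 275), Tpm2 (922 ± 64.3) and Tpm3 (392 ± 28.8) led the other sarcomere genes. Calcium handling was led by the pump Atp2a2 (669 ± 71.3), the junctional protein Jph2 (125 ± 6.74) and the channel subunit Cacna1c (50.9 ± 6.84). Sarcolemma genes were led by Dag1 (356 ± 2.69), Utrn (183 ± 4.64) and Dysf (162 ± 45.9). Muscle metabolism had lower levels, with Eno3 (52.4 ± 16.1), Fabp3 (6.61 ± 3.07) and Pygm (0.819 ± 0.172), the muscle glycogen phosphorylase. Among the regulators, Id3 (172 ± 29.1), Fst (125 ± 15.7) and Tcf3 (125 ± 2.65) led one list, and Srf (127 ± 19.2), Nppb (14.8 ± 6.32) and Gata6 (11.7 ± 2.87) the cardiac one. By the same measure Acta2 (6855 ± 222), Actb (4476 ± 477) and Actg1 (3517 ± 611) led the smooth and non-muscle genes.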

How the data were processed

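PolyA+ RNA from 3 clones of WT MEFs was sequenced by the authors, and the deposited values are raw counts per gene from HTSeq. Per the labels' processing notes, the tools were SAMtools 0.1.16, Bowtie 0.12.7 and TopHat2 2.0.0. The notes name mm9 and the study's methods mm10, and coordinates here are from GENCODE M21 on GRCm38. The HTSeq version, the annotation and the strand setting are not given in the sources used here.

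CPM was computed with TMM-scaled library sizes (edgeR 4.0.16, R 4.3.3), and exon lengths, sums and exact intervals (95%) in Python 3.11.15 with scipy 1.17.1. Sequence shared between genes was searched with bwa 0.7.19-r1273. There is 1 group, so no test was run. The calls were also run on simulated counts with counting error only. That run does not cover differences between cultures, and nothing here rests on it. The members and all gene lists were chosen with earlier results of these data known. By rule, named genes were all members, listed genes called raised, the 3 with the highest mean CPM of each pathway list, and the 10 with the largest fold among genes with at least 30 counts in clone 3. Outside this rule, lowered genes, Pax3, Pax7, the actin and myosin paralogs compared per kb, overlapping genes and A930016O22Rik were named after their values were seen. Calls of lowered genes, the comparison with genes of 10 to 100 counts and the sum without Myl4 were added after seeing the data. Alternatives were total counts and DESeq2 1.42.0 scaling, other thresholds, other gene lengths and leaving out each clone. Intervals cover counting error only.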

Additional observations from a re-analysis of the deposited data

How the results depend on the processing

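Total counts, DESeq2 size factors, other thresholds and the omission of each clone were compared with the values reported. Members at 1 CPM in every clone numbered 9, and 16 had over 3 counts in every clone. Members at or under 3 counts numbered 14, and 5 had 0 counts. Raised members in clone 1 changed from 1 to 2 at 1.5-fold, to 0 at 4-fold and to 0 with at least 30 counts, and were 1 to 5 without another clone. In clone 2 the 1 raised member, Chrna1, was lost with total counts (0) and at 4-fold (0). In clone 3 the 5 raised members were 3 at 4-fold and 2 with at least 30 counts, which were Actc1 and Myh3. They were 5 without clone 2 and 7 without clone 1. Leaving out another clone can only keep or add raised calls, in any clone, because the call takes the higher of the others. The fold of the summed embryonic genes, 3.10, was 2.26 without Myh3, 14.7 without Myl4, and 2.07 to 6.91 without clone 2 or clone 1. The Mef2a share, 35.0%, was 55.8% in raw counts and 30.05% per kb of the longest coding transcript. Without clone 3 the means of Myog, Actc1, Myh3, Myh7 and Ttn fell by over 1.5 times, so their levels rest on that library. At under 50 counts per clone, depth limits every fold of these genes.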

Other observations

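Of the 10 genes with at least 30 counts and the largest fold in clone 3, 8 were outside the muscle lists. After Gja5, Slc14a1, a urea transporter, had 80, 62 and 268 counts in clones 1, 2 and 3, and Cdh4, the retinal cadherin, had 11, 11 and 40. Tubb4a, a neural β-tubulin, had 26, 17 and 65 counts, and Angptl1, a secreted angiopoietin-like protein, had 38, 12 and 77. Arhgap36 had 28, 20 and 61 counts, Ripk4 had 23, 7 and 47, and St6galnac3 had 11, 14 and 31.

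A930016O22Rik, chosen after its values were seen, had 3, 2 and 14 counts and is annotated on the opposite strand of Ckm, where it overlaps 15.5% of the exonic bases of that gene. Ckm itself had 0 counts in every clone. Without the strand setting, reads of both genes cannot be told apart where they overlap.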
